A study of Homo sapiens with 8 samples.

Results

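A set of 10 genes of superoxide and peroxide metabolism was followed in EA.hy926 cells after CRISPR/Cas9 deletion of an endothelial enhancer region. They were chosen by symbol as 2 subunits of the NADPH oxidases (CYBA and NOX4) and 8 enzymes that remove superoxide or peroxides (SOD1, SOD2, SOD3, CAT, GPX1, GPX4, PRDX1 and PRDX4), and they are 10 of the 27946 genes in the expression table. EA.hy926 is a line made by fusing umbilical vein endothelial cells with lung carcinoma cells. The 3 groups were 2 libraries of control EA.hy926 cells, 3 libraries of ΔE2 clones, in which the enhancer E2 was deleted, and 3 libraries of ΔSE12313-b clones, in which another enhancer of the same super-enhancer on chromosome 16 was deleted. The study had chosen SE12313-b as an enhancer with no activity in its reporter assay. Both deletions were made with Cas9 protein and guide RNAs that flank the enhancer, and each line was grown from a single cell, so that each deletion library stands for 1 clone and the effect of a deletion cannot be told apart from that of clonal growth within a clone. The labels of all 8 libraries mention clones, whereas the methods speak of a control line, and for a growth assay the study used control cells that had received guide RNAs and were kept alongside the clones. Whether the control RNA came from those cells is not given in the sources used here. The labels name no other treatment of the cells.

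NADPH oxidases carry electrons from NADPH across a membrane to oxygen and so make superoxide or hydrogen peroxide. CYBA encodes p22phox, the small membrane subunit that several NOX catalytic subunits need for stability, and NOX4 is the catalytic subunit best known in endothelial cells, where it yields mainly hydrogen peroxide. Superoxide dismutases turn superoxide into hydrogen peroxide, in the cytosol (SOD1), the mitochondrial matrix (SOD2) and the extracellular space (SOD3). Catalase (CAT) in peroxisomes, the selenium-containing glutathione peroxidases (GPX1 and, for lipid peroxides in membranes, GPX4) and the thioredoxin-dependent peroxiredoxins (PRDX1 in the cytosol and PRDX4 in the endoplasmic reticulum) then remove peroxides.

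RNA levels were measured by RNA sequencing of rRNA-depleted total RNA and are given as FPKM, the reads on a transcript divided by its length and by the size of the library, so that genes of different length can be compared. The libraries held 12067555 to 19101140 reads. Reads on the transcripts that stand for the genes were 8151646 of 12696176 in the first control library. They were 13374308 of 19101140 in the first ΔE2 and 12588574 of 16085526 in the first ΔSE12313-b library. This share was higher in every clone than in control, and its part in the fold changes was not tested. Read numbers per gene could be recovered from the deposited values, and they show how deep each value is. Differences are log2 fold changes (log2FC) of FPKM + 0.1 from limma, fitted over all 13790 genes that reached 0.5 FPKM in at least 2 libraries, with p adjusted over all of them. A gene counted as differentially expressed (DEG) when its adjusted p was under 0.05 and the change reached 2-fold. Of the 10 genes 9 were tested, and SOD3 was not. The median log2FC of all tested genes was 0.14 in ΔE2 and 0.27 in ΔSE12313-b, against which each value should be read, and both deletions were compared with the same 2 control libraries. The 2 control libraries were closer to each other (chi-square per degree of freedom over genes 1.19) than any pair of clones of one deletion (4.0 to 22.9). The p-values measure the spread between these clones and between the control libraries. A gene at 0 is given as listed at 0 and not as unexpressed, because the table also has PRDX2, a peroxiredoxin that most cells express, at 0 in 7 of 8 libraries.

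The endothelial identity of the cells was checked with PECAM1, CDH5, VWF, TEK, KDR and ERG, all 6 of which had reads in every group. Their summed level was 125 to 126 FPKM in control, 110 to 205 in ΔE2 and 110 to 155 in ΔSE12313-b, and most of it was CDH5 (103, 99.2 and 77.3 FPKM as group means). The others did not move together. PECAM1 had means of 5.98 FPKM in control, 13.9 in ΔE2 and 26.0 in ΔSE12313-b, TEK 7.12, 14.1 and 11.0, ERG 7.68, 18.7 and 16.6, VWF 1.92, 0.537 and 0.515, and KDR 0.188, 0.201 and 0.077. Of the 4 epithelial markers, KRT8, KRT18 and EPCAM had reads and CDH1 had none in any library. The epithelial sum was 232 to 239 FPKM in control, 613 to 752 in ΔE2 and 541 to 668 in ΔSE12313-b, higher in every clone than in control. It was nearly all KRT8 (86.0 and 87.3 FPKM in control, 242 to 295 in the clones) and KRT18 (144 and 152, then 299 to 467), whereas EPCAM was lower, with 12 and 5 reads in control and 0 to 7 in the clones. The keratins moved in the direction of CAT, SOD1 and PRDX1 below, and the part of epithelial markers in those results was not tested. Leukocytes, which use p22phox in their own oxidase, left little signal. The summed leukocyte markers PTPRC, CD14, LYZ and CD3E ranged from 0.082 to 2.68 FPKM over the 8 libraries. PTPRC had 1 read in 1 ΔE2 library, CD14 at most 1 read per library and CD3E 0 in all. LYZ made up most of the sum, with 6 and 2 reads in control, 20, 69 and 33 in ΔE2 and 1, 5 and 5 in ΔSE12313-b. It was thus highest in ΔE2 (means of 0.211, 1.66 and 0.158 FPKM).

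In ΔE2, CAT and PRDX1 were upregulated, and none of the 9 tested genes was downregulated as a DEG. In ΔSE12313-b, CAT, PRDX1 and SOD1 were upregulated and CYBA and NOX4 were downregulated. With each library centred on its median, SOD1 was under 2-fold there (log2FC 0.79). CYBA had the largest difference between the deletions among these 9 genes, since it was at control-like levels in ΔE2 and nearly without reads in ΔSE12313-b. In numbers, 2 of 9 genes were DEGs in ΔE2, both higher, where 19.6% of all tested genes were DEGs (11.2% higher and 8.36% lower). In ΔSE12313-b, 5 of 9 genes were DEGs, with 3 higher and 2 lower, against 22.6% of all tested genes (14.7% higher and 7.83% lower). Between ΔE2 and ΔSE12313-b, CYBA and NOX4 were DEGs, both higher in ΔE2, against 4.23% of all tested genes (1.60% higher and 2.63% lower in ΔE2). The median log2FC of the 9 genes was 0.52 in ΔE2 and 0.35 in ΔSE12313-b. Centring each library on its median moved the balance of all DEGs. In ΔE2, 1544 higher and 1153 lower became 1170 and 1464, and in ΔSE12313-b, 2032 and 1080 became 1201 and 1570. Between the deletions it moved from 221 higher and 362 lower in ΔE2 to 287 and 244.

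**Figure D1:**
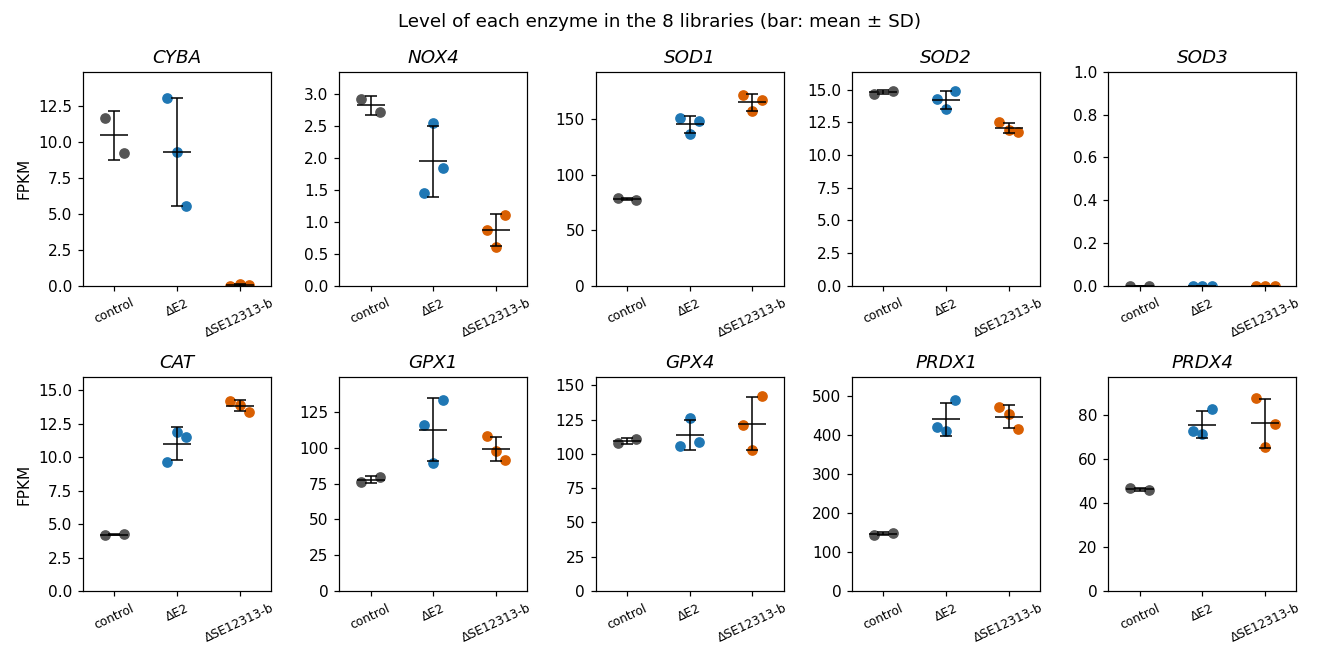
FPKM of each of the 10 genes in the 2 control, 3 ΔE2 and 3 ΔSE12313-b libraries, with 1 panel per gene and its own linear axis from 0; points are libraries, and bars are group means with their SD. CYBA lies between 0 and 0.094 FPKM in all 3 ΔSE12313-b libraries and between 5.55 and 13.1 elsewhere, while CAT and PRDX1 lie above both control libraries in all 6 clones and SOD3 is at 0 throughout.

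In control cells the most abundant of these RNAs was PRDX1 (147 ± 3.50 FPKM, SD, n = 2), which stood at percentile 98.2 of the tested genes. GPX4 followed at 109 ± 2.56 FPKM. SOD1 (78.2 ± 1.01) and GPX1 (77.6 ± 2.39) overlapped and cannot be ordered, and PRDX4 came next at 46.2 ± 0.660. SOD2 (14.8 ± 0.161), CYBA (10.5 ± 1.70), CAT (4.21 ± 0.0509) and NOX4 (2.81 ± 0.144) completed the order without overlap of the control libraries. The removing enzymes were thus, apart from CAT and SOD3, which was listed at 0, listed at higher FPKM than both oxidase subunits. In both deletions PRDX1 stayed first and SOD1 stood second, above GPX4. GPX4 and GPX1 overlapped in both deletions. CAT and CYBA overlapped in ΔE2, whereas in ΔSE12313-b CAT stood above SOD2 and CYBA fell into the range of SOD3, from percentile 66.6 in control to 1.17.

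CYBA was kept as transcript NM_000101, 715 bases long, at chr16:88709697-88717492 on the minus strand of GRCh37 (16q24.2). Its level was 11.7 and 9.27 FPKM in the control libraries, from 106 and 80 reads. In the ΔE2 clones it was 13.1, 9.31 and 5.55 FPKM, from 179, 114 and 54 reads. In the ΔSE12313-b clones it was 0, 0.094 and 0.088 FPKM, from 0, 1 and 1 reads. All 3 ΔSE12313-b clones were therefore below every other library, and the ΔE2 clones spread on both sides of control. The loss in ΔSE12313-b had a log2FC of -6.09 (SE 0.40, adjusted p = 1.17e-05, limma). That fitted value depends on the pseudocount. Set against a floor of 3 reads in each ΔSE12313-b library, which covers counting error only, CYBA was at least 38.9-fold lower than in control and ΔE2 was at least 34.6-fold higher than ΔSE12313-b. ΔE2 and control did not differ by the test (log2FC -0.24, 95% interval -1.17 to 0.69, adjusted p = 0.637), and the interval leaves room for changes of 2-fold downwards. The ΔE2 clones varied by 40.6% (coefficient of variation), where counting alone gives 9.3%, and without the third ΔE2 clone the log2FC turned to 0.09. In RNA from whole cultures, fewer cells that express a gene and less RNA per cell cannot be told apart.

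The promoter sequences of CYBA, which lost its RNA in 1 deletion, and of CAT, which rose in both, are shown because they differ in their common promoter boxes. They come from the RefSeq promoter table (GRCh38.p14) and were placed in GRCh37 by an exact match. Each ends directly before the deposited transcript and runs 5′ to 3′ on the gene's strand, and capitals mark GC boxes (GGGCGG) and CCAAT boxes on either strand. The CYBA stretch is chr16:88717493-88717711 on the minus strand, and the CAT stretch is chr11:34460231-34460471 on the plus strand.
CYBA: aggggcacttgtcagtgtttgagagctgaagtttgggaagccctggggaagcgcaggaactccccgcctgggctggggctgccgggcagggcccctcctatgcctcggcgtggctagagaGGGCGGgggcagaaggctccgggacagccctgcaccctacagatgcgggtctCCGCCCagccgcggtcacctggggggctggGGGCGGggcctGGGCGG
CAT: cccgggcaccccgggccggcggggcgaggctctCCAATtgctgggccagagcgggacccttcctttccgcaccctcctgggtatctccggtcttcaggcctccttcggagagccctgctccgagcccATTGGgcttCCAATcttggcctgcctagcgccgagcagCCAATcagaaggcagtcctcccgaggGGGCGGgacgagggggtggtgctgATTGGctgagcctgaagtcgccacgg
The CYBA stretch of 219 bases holds 4 GC boxes and no CCAAT box. The CAT stretch of 241 bases holds 1 GC box and 5 CCAAT boxes. In the 250 bases before each start, a GC box stood in 42.6% of all 35116 promoter windows and in 12 of the 15 windows of the 8 genes of the set that the table holds. A CCAAT box stood in 32.0% of all windows and in 7 of these 15. SOD2, NOX4 and GPX4 each hold several of the 15 windows, which are thus not independent. By gene, 7 of the 8 had a GC box and 5 of the 8 a CCAAT box in at least 1 window. The antioxidant response element TGACNNNGC, searched on both strands, stood in 10.9% of all windows and in 0 of 15, which says only that these letters are not in these windows. SOD1 and PRDX1 have no entry in the promoter table, so their promoters were not searched. CAT was thus the only upregulated gene of the set among those searched.

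The genes around CYBA were read for a shared change. CYBA lies 10.9 Mb from NUDT7 and 11.2 Mb from ADAMTS18, the genes that flank the super-enhancer. Within 500 kb of CYBA lay 26 other genes, of which 14 were tested. In ΔSE12313-b their log2FC ran between -1.32 and 3.29 with a median of 0.17. In ΔE2 it ran between -0.83 and 3.46 with a median of 0.18. The nearest tested gene, MVD, an enzyme of cholesterol synthesis whose 3′ end lies 0.856 kb from CYBA, was at 5.42 FPKM in control, 8.49 in ΔE2 and 7.15 in ΔSE12313-b (log2FC 0.37, adjusted p = 0.273 in ΔSE12313-b). In ΔSE12313-b, 1 of the 14 was a DEG below control, near the 7.83% of all tested genes, namely the antisense RNA SNAI3-AS1 (0.813 to 0.278 FPKM, log2FC -1.32, adjusted p = 0.0221). CDT1, a replication licensing factor, was a DEG above control in both deletions (2.04 FPKM in control, 23.2 in ΔE2 and 20.5 in ΔSE12313-b). The 274 genes tested on 16q had a median log2FC of -0.04 in ΔSE12313-b.

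**Figure D2:**
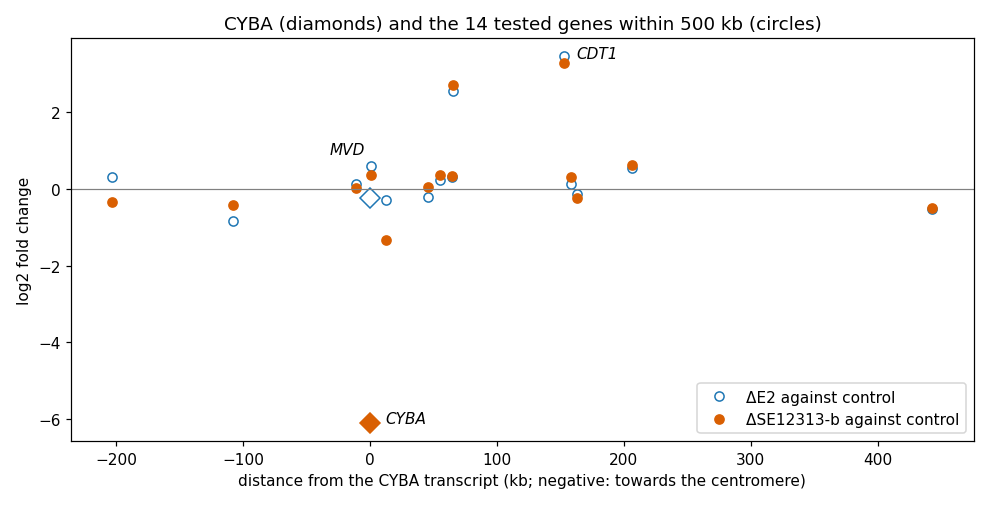
Log2 fold change against control of CYBA and of the 14 tested genes within 500 kb, by distance from CYBA in kb; diamonds are CYBA, circles its neighbours, open symbols ΔE2 and filled symbols ΔSE12313-b. CYBA stands at -6.09 in ΔSE12313-b, while its neighbours lie between -1.32 and 3.29.

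NOX4, kept as NM_001291927 at chr11:89057522-89224146 on the minus strand (11q14.3), was lower in all 6 clones than in both control libraries. The control libraries held 2.92 and 2.71 FPKM, the ΔE2 clones 1.45, 2.54 and 1.84, and the ΔSE12313-b clones 0.876, 0.612 and 1.11. The ranges of the 3 groups did not overlap, with ΔE2 in the middle. In ΔSE12313-b NOX4 was 3.08-fold lower (log2FC -1.62, SE 0.28, adjusted p = 0.00164, limma). In ΔE2 the log2FC of -0.55 missed the threshold (95% interval -1.20 to 0.11, adjusted p = 0.138). The depth was moderate, with 137 to 155 reads in control and 38 to 74 in ΔSE12313-b. The direct difference between the deletions was 1.08 (SE 0.25, adjusted p = 0.0181), and this call was lost without the second ΔE2 clone (0.88), without the second ΔSE12313-b clone (0.87) and without the third ΔE2 clone (1.10, adjusted p = 0.0526). All 8 listed NOX4 transcripts had negative log2FC, between -0.90 and -0.54 for ΔE2 and between -1.66 and -0.92 for ΔSE12313-b. On 11q, the 546 tested genes had a median log2FC of -0.02 in ΔSE12313-b, 0.28 in ΔE2 and 0.28 between the deletions.

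The other NADPH oxidase genes mostly had few or no reads. Of 16 listed relatives and partners 5 were tested, and 1 of them was a DEG, below control, in ΔE2 and in ΔSE12313-b, which is near the share of DEGs among all tested genes (19.6% and 22.6%). This gene, NOXA1, encodes an activator subunit of NOX1. It was at 7.70 and 7.12 FPKM in control, at 0.68, 1.05 and 0.681 in ΔE2 and at 1.00, 1.34 and 1.60 in ΔSE12313-b, so that it fell in both (log2FC -3.08, adjusted p = 3.65e-05, and -2.43, adjusted p = 9.15e-05). RAC2, a small GTPase of the oxidase complex, showed another order, with 111 and 103 FPKM in control, 58.9, 57.0 and 53.2 in ΔE2, and 101, 109 and 106 in ΔSE12313-b. It stayed just under 2-fold in ΔE2 (log2FC -0.92, adjusted p = 3.75e-05), where the median of all tested genes was 0.14. By a direct test, RAC2 was lower in ΔE2 than in ΔSE12313-b (log2FC -0.90, adjusted p = 0.00027). CYBC1, a chaperone of the CYBA and CYBB pair, was at 11.1 ± 0.861 FPKM in control, 8.67 ± 0.534 in ΔE2 and 11.8 ± 1.23 in ΔSE12313-b. Its log2FC by limma was -0.36 in ΔE2 (adjusted p = 0.0254) and 0.08 in ΔSE12313-b (adjusted p = 0.578). Between the deletions it was -0.43 (adjusted p = 0.0157), so CYBC1 was lower in ΔE2, by less than 2-fold. RAC1 (0.28 in ΔE2 and 0.39 in ΔSE12313-b) and POLDIP2, a partner of p22phox (0.46 and 0.75), had positive log2FC under 2-fold with adjusted p of at most 0.0184. CYBB, the catalytic subunit of phagocytes, and DUOXA2 were listed at 0 in every library. NOX1, NOX5, DUOX1, NCF1 and NOXO1 had at most 1 read per library, NCF4 at most 2 and NOX3 at most 3. DUOX2 had 3 and 0 reads in control, 2, 4 and 2 in ΔE2 and 2, 1 and 8 in ΔSE12313-b. DUOXA1, the maturation factor of DUOX1, had 0 and 2 reads in control, 5, 13 and 6 in ΔE2 and 4, 9 and 6 in ΔSE12313-b, more in every clone than in control but too low to be tested. NOX4 was the catalytic NOX or DUOX gene that was tested.

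The 3 superoxide dismutases differed from one another. SOD1 (NM_000454, chr21:33031935-33041243, plus strand) was at 78.9 and 77.5 FPKM in control, 151, 137 and 148 in ΔE2 and 172, 157 and 167 in ΔSE12313-b. Every clone was above both control libraries. The increase was 1.86-fold in ΔE2 (log2FC 0.89, SE 0.07, adjusted p = 4.17e-05), just under the 2-fold limit, and 2.11-fold in ΔSE12313-b (1.08, SE 0.07, adjusted p = 1.25e-05). With each library centred on its median the ΔSE12313-b value was 0.79, and with quantile normalisation 0.56, both under 2-fold. The direct difference was -0.19 (95% interval -0.33 to -0.04, adjusted p = 0.0706), so the deletions were not shown to differ in SOD1, although it was a DEG in one of them alone.

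SOD2 (NM_001024465, chr6:160100096-160114360, minus strand) moved little. It was at 14.7 and 14.9 FPKM in control, 14.3, 13.5 and 14.9 in ΔE2 and 12.5, 11.9 and 11.8 in ΔSE12313-b. The ΔSE12313-b clones were below all other libraries (log2FC -0.29, SE 0.08, adjusted p = 0.0109), a change under 2-fold, and ΔE2 overlapped control (-0.06, 95% interval -0.24 to 0.12, adjusted p = 0.526). With each library centred on its median, SOD2 was at -0.58 in ΔSE12313-b (adjusted p = 0.000377) and at -0.22 in ΔE2 (adjusted p = 0.0346). On 6q, which holds SOD2, the 285 tested genes had a median log2FC of -0.24 in ΔSE12313-b and 0.22 in ΔE2. Between the deletions their median was 0.45. Whether SOD2 changed apart from its chromosome arm was not tested. SOD3 (NM_003102, chr4:24797085-24802467, plus strand), the secreted enzyme, was listed at 0 in all 8 libraries. SOD1 made up 83.8% to 84.3% of the summed FPKM of the dismutases in control, 90.8% to 91.4% in ΔE2 and 93.0% to 93.4% in ΔSE12313-b, so the cytosolic enzyme took a larger share of this RNA in every clone.

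Among the enzymes that remove peroxides, CAT (NM_001752, chr11:34460472-34493607, plus strand) was at 4.17 and 4.24 FPKM in control, from 121 and 117 reads. In ΔE2 it was at 9.62, 11.9 and 11.5 FPKM, and in ΔSE12313-b at 14.2, 13.9 and 13.4. The 3 groups did not overlap, and all 6 clones were above control. CAT was upregulated 2.56-fold in ΔE2 (log2FC 1.36, SE 0.10, adjusted p = 2.92e-05) and 3.23-fold in ΔSE12313-b (1.69, SE 0.10, adjusted p = 7.58e-06). ΔE2 was slightly below ΔSE12313-b (-0.34, SE 0.09, adjusted p = 0.0315). This difference did not pass the limma test with each library centred on its median (-0.21, adjusted p = 0.123) or with quantile normalisation (-0.20, adjusted p = 0.133). CAT remained a DEG under all 21 alternative settings, with log2FC of 1.20 to 1.45 in ΔE2 and 1.40 to 1.72 in ΔSE12313-b.

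The 2 glutathione peroxidases were not DEGs in either deletion. GPX1 (NM_000581, chr3:49394604-49396033, minus strand) was at 75.9 and 79.3 FPKM in control, 116, 89.1 and 133 in ΔE2 and 108, 98.0 and 91.5 in ΔSE12313-b. All 6 clones were above control, but the ΔE2 clones varied by 19.7% where counting gives 2.17%. The log2FC was 0.52 in ΔE2 (SE 0.16, adjusted p = 0.0244) and 0.35 in ΔSE12313-b (95% interval -0.01 to 0.71, adjusted p = 0.0883), and with centred libraries these were 0.36 (adjusted p = 0.0852) and 0.06. Quantile normalisation turned the second to -0.15. GPX4 (NM_002085, chr19:1103925-1106788, plus strand) was at 108 and 111 FPKM in control, 106, 126 and 109 in ΔE2, and 121, 103 and 142 in ΔSE12313-b. Its groups overlapped in every comparison. Its log2FC was 0.06 in ΔE2 (95% interval -0.26 to 0.37, adjusted p = 0.749) and 0.14 in ΔSE12313-b (-0.17 to 0.46, adjusted p = 0.393), and both turned negative with centred libraries (-0.10 and -0.14), so no direction can be given.

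PRDX1 (NM_181697, chr1:45976707-45987610, minus strand) was the most abundant RNA of the set and rose in both deletions. It was at 144 and 149 FPKM in control, 420, 410 and 488 in ΔE2, and 472, 453 and 414 in ΔSE12313-b. The clones of the deletions overlapped each other, all above control. The increase was 2.99-fold in ΔE2 (log2FC 1.58, SE 0.10, adjusted p = 1.05e-05) and 3.04-fold in ΔSE12313-b (1.60, SE 0.10, adjusted p = 8.07e-06). The direct difference was -0.02 (95% interval -0.23 to 0.18, adjusted p = 0.865). PRDX1 remained a DEG under all 21 alternatives, with log2FC of 1.18 to 1.63 in ΔE2 and 1.15 to 1.66 in ΔSE12313-b. Its 3′ end overlaps the end of MMACHC on the opposite strand, a gene whose overlapping transcripts had a mean of at most 2.61 FPKM over the 8 libraries.

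PRDX4 (NM_006406, chrX:23685645-23704514, plus strand) also rose in both. It was at 46.6 and 45.7 FPKM in control, 72.5, 71.3 and 82.5 in ΔE2 and 87.4, 65.1 and 75.8 in ΔSE12313-b, above control in all 6 clones. Its log2FC of 0.70 in ΔE2 (SE 0.12, adjusted p = 0.00209) and 0.71 in ΔSE12313-b (SE 0.12, adjusted p = 0.00168) passed the test but not 2-fold. With quantile normalisation the ΔSE12313-b value was 0.21 (adjusted p = 0.123). Summed, the 2 peroxiredoxins reached 191 to 195 FPKM in control, 481 to 571 in ΔE2 and 490 to 559 in ΔSE12313-b. The 2 glutathione peroxidases summed to 183 to 190, 216 to 242 and 201 to 234 FPKM. In control these 2 sums were close, and in every clone the peroxiredoxin sum was the larger. The reference annotation (GENCODE v44 lifted to GRCh37) holds processed pseudogenes named after SOD1 (3), GPX1 (2), SOD2 (1), PRDX1 (1) and PRDX4 (1). The values of these genes are uncertain to the extent that reads were shared with those copies. Copies under other names were not searched.

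**Figure D3:**
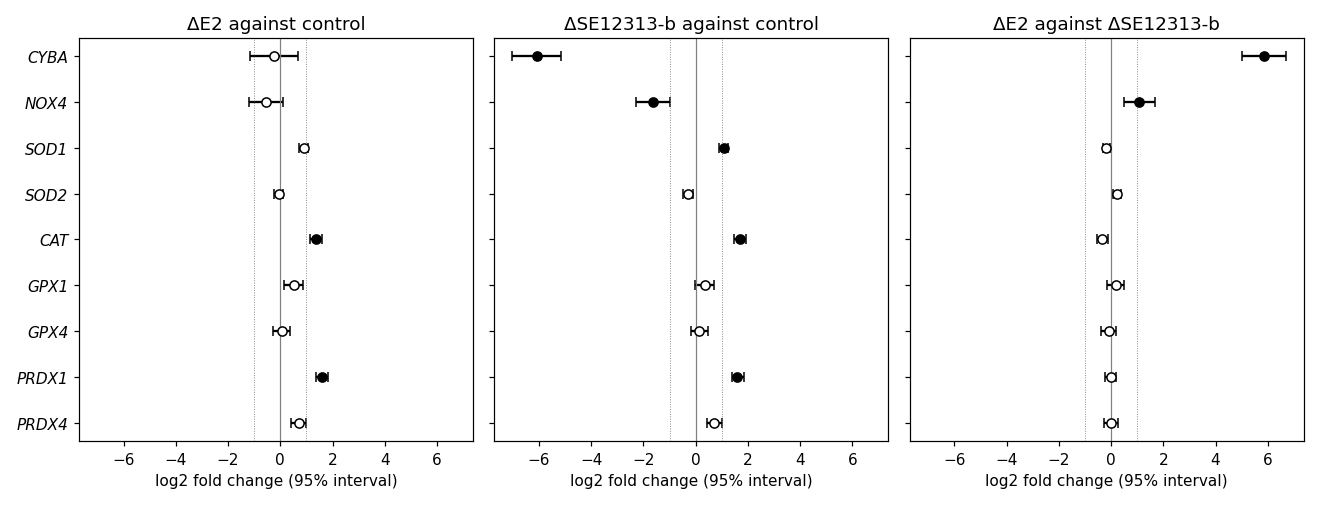
Log2 fold change with its 95% interval of the 9 tested genes for each deletion against control and for the deletions against each other (ΔE2 minus ΔSE12313-b), from limma on log2(FPKM + 0.1); filled symbols are DEGs and dotted lines mark 2-fold. PRDX1 and CAT lie beyond 2-fold above control in both deletions, and CYBA (5.85) and NOX4 (1.08) lie beyond 2-fold between the deletions.

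The deletions were also set directly against each other. Each difference leaves out the control values, but its SE and p come from the fit of all 8 libraries, control included. CYBA was higher in ΔE2 than in ΔSE12313-b (log2FC 5.85, SE 0.36, adjusted p = 0.000152), and so was NOX4, as given above. SOD2 (0.23, adjusted p = 0.039) and CAT (-0.34, adjusted p = 0.0315) differed by less than 2-fold, and CAT did not pass with centred libraries (-0.21, adjusted p = 0.123). The other 5 tested genes did not pass the test. Of these, GPX4 (95% interval -0.37 to 0.20), PRDX1 (-0.23 to 0.18) and PRDX4 (-0.26 to 0.25) had intervals well inside 2-fold and changed sign with centring, and GPX1 was at 0.17 (-0.16 to 0.49).

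A list of 54 further genes of oxidant production and removal, grouped by role, was read in the same fit, and 34 of them were tested. In ΔE2, 6 of 34 were DEGs (3 higher and 3 lower, median log2FC 0.26), and in ΔSE12313-b, 8 of 34 (5 higher and 3 lower, median 0.41). These counts are near the shares of all tested genes given above. With centred libraries or quantile normalisation, 4 related genes instead of 3 were DEGs below control in ΔE2. In the supply of reduced thioredoxin and glutathione, 3 of 10 tested genes were DEGs, all higher, in each deletion (median log2FC 0.50 and 0.75). Over all tested genes, 11.2% in ΔE2 and 14.7% in ΔSE12313-b were DEGs above control. TXN, the thioredoxin that recharges PRDX1, was at 77.6 and 76.1 FPKM in control, 150 to 189 in ΔE2 and 166 to 191 in ΔSE12313-b (log2FC 1.16, adjusted p = 9.62e-05, and 1.24, adjusted p = 5.19e-05), although with centred libraries it stood at 1.00 and 0.95 and was no DEG. TXNRD2, the mitochondrial thioredoxin reductase, was at 11.3 and 9.26 FPKM in control and at 31.5 to 38.4 in the 6 clones (log2FC 1.76 and 1.74). GCLM, the modifier subunit of the first enzyme of glutathione synthesis, was at 4.30 and 3.81 FPKM in control and rose to 11.9 to 14.3 in ΔE2 (log2FC 1.64) and 8.06 to 11.9 in ΔSE12313-b (1.32). In the removal of superoxide and peroxides, 8 of 13 listed genes were tested. PRDX3, the mitochondrial peroxiredoxin, was higher in all clones (73.0 to 85.3 FPKM in ΔE2 and 92.8 to 115 in ΔSE12313-b, against 41.6 and 43.3) and was a DEG in ΔSE12313-b (log2FC 1.32) and under 2-fold in ΔE2 (0.87). With quantile normalisation PRDX3 was no DEG in ΔSE12313-b (0.84). SESN2, a stress-induced sestrin, was at 23.5 ± 0.230 FPKM in control and fell to 6.40 ± 0.924 (ΔE2) and 7.53 ± 0.626 (ΔSE12313-b; log2FC -1.87 and -1.63). In selenocysteine insertion, on which GPX1, GPX4 and TXNRD2 depend, all 7 genes were tested. SEPSECS, which forms the selenocysteine on its tRNA, fell in both (3.80 to 1.76 and 1.51 FPKM, log2FC -1.07 and -1.28), but both values were under 2-fold with pseudocount 1 (-0.80 and -0.94). SEPHS1 was a DEG above control in ΔSE12313-b (5.98 to 16.5 FPKM, log2FC 1.45) with 0.85 in ΔE2. None of the 4 tested genes among the other oxidant producers was a DEG in either deletion, with 1 of them under an adjusted p of 0.05 in ΔE2 and 2 in ΔSE12313-b. Of all 13790 tested genes, 7455 in ΔE2 and 8188 in ΔSE12313-b were under this adjusted p.

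**Figure D4:**
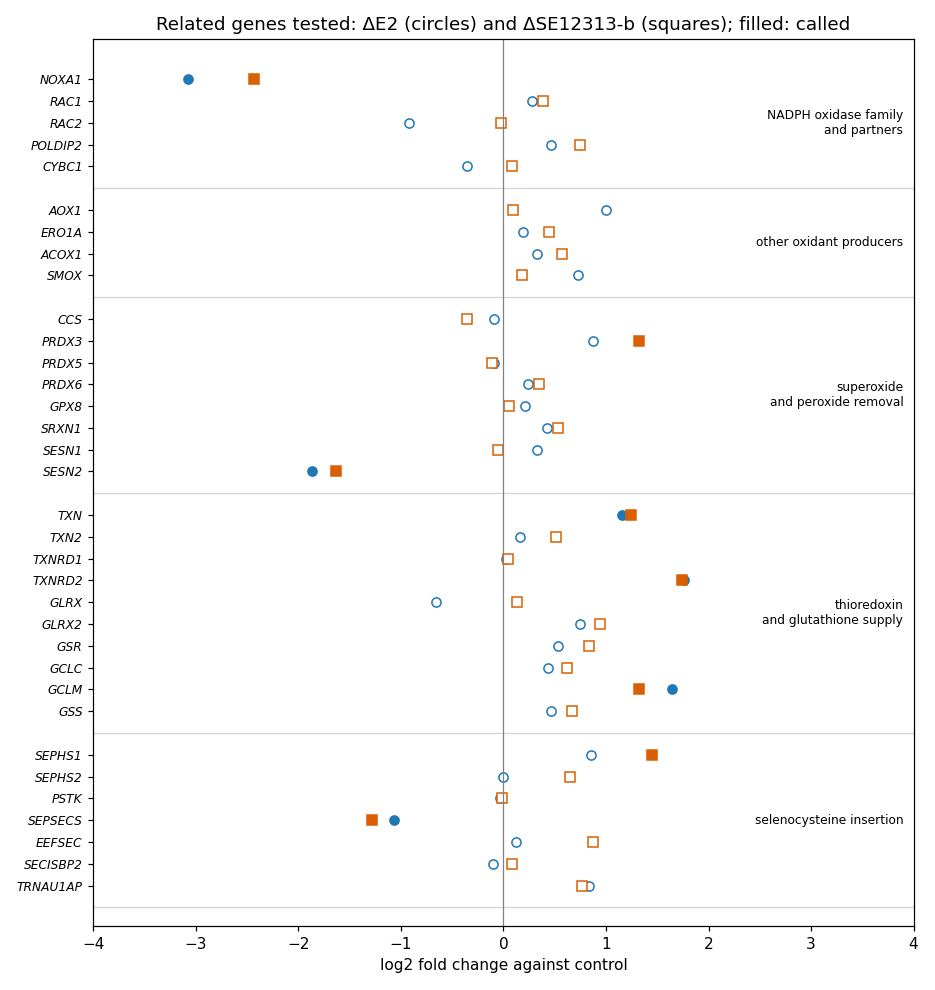
Log2 fold change against control of the 34 tested related genes, grouped by role; circles are ΔE2, squares ΔSE12313-b, and filled symbols DEGs. TXN, TXNRD2 and GCLM lie above 2-fold and NOXA1, SESN2 and SEPSECS below it in both deletions.

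Genes with a like pattern over the 8 libraries were found by the root mean square difference of log2(FPKM + 0.1) profiles, each centred on its mean. For CYBA they were LINC01425 (0.63), EPB41L3 (0.87) and MAGEC2 (0.89). LINC01425, the closest, was at 16.4 FPKM in control, 13.3 in ΔE2 and 0.0893 in ΔSE12313-b. For NOX4 they were LINC01098 (0.16), RPS6KA2 (0.17) and LOC728743 (0.20), and for SOD2 they were PIBF1 (0.04), AP5B1 (0.04) and TARS (0.05). The profiles were not scaled, so such a distance depends on the size of a gene's own changes. It therefore cannot be compared between CYBA, NOX4 and SOD2, and these distances are a description over 8 libraries.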

How the data were processed

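The authors trimmed single-end reads of directional libraries with Trim Galore 0.4.4, aligned them with STAR 2.5.4b to GRCh37 and deposited FPKM values per RefSeq transcript; the tool and strand handling behind the FPKM are not given in the sources used here, and reads in more than 1 place may be shared between copies. Groups came from the labels. The transcript with the highest mean FPKM stood for each gene. Whole reads were recovered from FPKM times length (tolerance 0.1 read). Log2(FPKM + 0.1) was tested with limma 3.58.1 (R 4.3.3; trend, empirical Bayes, two-sided, Benjamini-Hochberg) for genes with at least 0.5 FPKM in at least 2 libraries, in 1 fit of 8 libraries. The script was tested on simulated data. Alternatives were other pseudocounts, filters, scalings, thresholds and transcripts, a replicate block, groups fitted alone, no trend, each library left out, and voom with TMM factors on recovered reads.

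A listed gene is not reported here and was left out of the list's counts. Members and lists were chosen with earlier results of these data known. Named were all 10 members, listed genes that were DEGs in either deletion, any NADPH oxidase gene, the 3 nearest profiles, and genes within 500 kb of CYBA. MVD, SNAI3-AS1 and CDT1 were picked from those after their values were seen. A floor of 3 reads per library gave fold bounds, which cover counting error only.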

Additional observations from a re-analysis of the deposited data

Results flagged for a closer look

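Of the 9 tested genes, 4 differed between the deletions by the direct limma test of ΔE2 against ΔSE12313-b. The cut was an adjusted p under 0.05 over all genes tested, without a fold limit. Of all 13790 tested genes, 3590 passed the same cut. CYBA had a log2FC of 5.85 (adjusted p = 0.000152), with -0.24 in ΔE2 and -6.09 in ΔSE12313-b against control, and all 3 ΔE2 clones were above all 3 ΔSE12313-b clones. NOX4 differed by 1.08 (adjusted p = 0.0181), with -0.55 and -1.62 against control. SOD2 differed by 0.23 (adjusted p = 0.039), with -0.06 and -0.29 against control. CAT differed by -0.34 (adjusted p = 0.0315), with 1.36 and 1.69 against control. With centred libraries, quantile normalisation and voom its difference was -0.21, -0.20 and -0.23 and did not pass the test. Whether the larger increase of CAT in ΔSE12313-b passed the test thus depended on the scaling. Its direction was the same under all 21 alternatives (log2FC -0.39 to -0.20). In all 4 genes, which this test had picked, the 2 groups of clones did not overlap.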

How the results depend on the processing

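Of 567 single-gene values of the set under 21 alternatives, 531 kept their direction and their side of the threshold. The counts moved most with the thresholds and the pseudocount, and for those that follow the cause was not tested unless the alternative's own construction gives it. With pseudocount 1, DEGs over all genes went from 2697 to 1718 in ΔE2, from 3112 to 2004 in ΔSE12313-b and from 583 to 240 between the deletions. At 1.5-fold they were 5054, 5802 and 1631, and an adjusted p under 0.01 left 383 between the deletions. Among the 10 genes, 1.5-fold gave 4 instead of 2 DEGs in ΔE2, and between the deletions pseudocount 1 and an adjusted p under 0.01 each left 1 of 2. Leaving out a library gave 1 to 2 there, since NOX4 was lost. Among related genes 1.5-fold gave 13 instead of 6 in ΔE2, 16 instead of 8 in ΔSE12313-b and 5 instead of 0 between the deletions. Leaving out a library gave 0 to 1 related DEGs between the deletions, with 1 without the second ΔSE12313-b clone. Replicate numbers did not pair the samples (correlations of same-numbered deviations -0.0804 to 0.107), and the replicate block changed no call of a named gene, with 2530, 2962 and 523 DEGs over all genes.

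CYBA in ΔE2 turned to 0.09 without the third ΔE2 clone (range -0.53 to 0.09 over the libraries left out). GPX4 in ΔE2 turned to -0.10 (centred), -0.38 (quantile), -0.09 (voom) and -0.02 (without the second ΔE2 clone), and in ΔSE12313-b to -0.14, -0.43 and -0.12 under the same 3 scalings. With quantile normalisation these passed the test (adjusted p = 0.0241 and 0.014). GPX1 in ΔSE12313-b turned to -0.15 (quantile). Between the deletions, the small negative values of GPX4 turned to 0.04, 0.05 and 0.02, those of PRDX1 to 0.11, 0.03 and 0.08, and those of PRDX4 to 0.12, 0.16 and 0.10 (centred, quantile, voom). Leaving out a clone also turned them, to 0.03 for GPX4 (range -0.21 to 0.03), 0.01 to 0.02 for PRDX1 and 0.02 to 0.10 for PRDX4 (range -0.11 to 0.10). SOD1 in ΔSE12313-b fell under 2-fold with centring (0.79), quantile normalisation (0.56) and voom (0.82). With 0 to 1 reads in ΔSE12313-b, depth allows only a bound for CYBA, whose fitted log2FC ran from -7.80 to -3.43.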

Other observations

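Several relatives of the set were listed at or near 0 in these libraries, which does not show that they are not expressed. PRDX2, the cytosolic peroxiredoxin closest in role to PRDX1, had 1 read in 1 ΔE2 library and 0 in the other 7 (a gene picked here with its values known). The glutathione peroxidases GPX3, which is secreted, and GPX7 were listed at 0 in every library, and GPX2 had 1 read in 1 control library. MAOB, a hydrogen peroxide-producing amine oxidase of the outer mitochondrial membrane, was listed at 0 throughout. Its relative MAOA had 27 and 28 reads in control, 25, 16 and 18 in ΔE2, and 4, 8 and 12 in ΔSE12313-b, and was too low in FPKM to be tested.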
